A study of Mus musculus with 8 samples.

Results

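The 7 melanocyte pigment genes Tyr, Tyrp1, Dct, Mlana, Mitf, Oca2 and Slc45a2 were taken by symbol from the 22609 gene symbols counted in each of 8 mouse paw libraries. The libraries, 4 labelled male and 4 labelled female, came from the inbred mouse strain C57BL/6J. All 8 were labelled as treated with PRL (prolactin), 0.1 µg injected under the skin of the paw sole once a day for 12 days. The labels also name injections of PBS and a single dose of PRL; those arms were not analysed here, so no untreated background stands beside the values, and age is not given in the sources used here. Transcripts were read by poly(A)-selected RNA sequencing of whole paw tissue, which holds epidermis, hair follicles, sweat glands, nerve, muscle and bone beside the rare pigment cells.

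Melanocytes are neural crest derived cells that make melanin inside melanosomes, organelles related to lysosomes, and pass them to keratinocytes. MITF is the transcription factor that drives the melanocyte programme. Tyrosinase (Tyr) carries out the rate-limiting oxidation of tyrosine, and its relatives Tyrp1 and Dct act further along the route to eumelanin. Mlana is a melanosome membrane protein and a standard melanocyte marker, Oca2 is a melanosomal transporter of anions that raises melanosome pH, and Slc45a2 is a melanosomal membrane transporter. MITF binds the E-box CATGTG, above all in its extended form TCATGTG, the M-box, in the promoters of Tyr, Tyrp1 and Dct. Mitf itself starts from several promoters and is also used in mast cells, osteoclasts and other cells, whereas Tyr, Tyrp1, Dct and Mlana are far more restricted to pigment cells.

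Promoters of the 3 melanin enzymes are shown because MITF, the regulator among the members, acts through them, and that of Mitf because transcription of its melanocyte form is known to respond to cAMP. The sequences are those of RefSeq on GRCm38.p6, 300 bases each from 250 before to 50 after the annotated start, matched by symbol, with a sequence found for 5 of the 7 members (Tyr, Tyrp1, Dct, Mitf and Oca2). The counts were made on mm9, and no value was read by these coordinates. Capitals mark TCATGTG or its reverse complement CACATGA in the enzymes, and TGACGTCA, the cAMP response element, in Mitf.
Tyr, chr7:87493463-87493762, minus strand: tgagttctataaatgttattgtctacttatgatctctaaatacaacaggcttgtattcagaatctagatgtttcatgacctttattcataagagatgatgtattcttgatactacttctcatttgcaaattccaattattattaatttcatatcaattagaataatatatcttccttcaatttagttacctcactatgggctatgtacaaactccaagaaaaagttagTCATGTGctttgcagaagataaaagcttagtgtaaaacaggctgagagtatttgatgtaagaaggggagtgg
Tyrp1, chr4:80833963-80834262, plus strand: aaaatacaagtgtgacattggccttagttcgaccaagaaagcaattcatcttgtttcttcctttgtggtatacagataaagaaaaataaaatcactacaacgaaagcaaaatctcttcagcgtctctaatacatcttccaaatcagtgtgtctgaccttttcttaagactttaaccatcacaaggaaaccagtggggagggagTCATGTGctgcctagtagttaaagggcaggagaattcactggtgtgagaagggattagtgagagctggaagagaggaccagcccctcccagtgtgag
Dct, chr14:118052197-118052496, minus strand: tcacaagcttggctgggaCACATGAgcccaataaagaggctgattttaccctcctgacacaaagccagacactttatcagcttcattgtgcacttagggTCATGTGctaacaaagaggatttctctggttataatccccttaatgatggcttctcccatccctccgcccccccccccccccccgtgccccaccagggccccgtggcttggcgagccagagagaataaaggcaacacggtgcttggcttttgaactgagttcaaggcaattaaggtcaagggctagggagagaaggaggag
Mitf, the most downstream of 3 listed starts, chr6:97991533-97991832, plus strand: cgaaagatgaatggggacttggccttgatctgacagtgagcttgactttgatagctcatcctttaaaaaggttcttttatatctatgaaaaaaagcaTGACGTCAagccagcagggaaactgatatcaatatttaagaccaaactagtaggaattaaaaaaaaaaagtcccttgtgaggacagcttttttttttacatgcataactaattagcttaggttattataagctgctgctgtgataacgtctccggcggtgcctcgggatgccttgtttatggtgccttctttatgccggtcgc

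All 3 melanin enzymes held the M-box in this window. It began 22 bases before the start in Tyr, 47 bases before it in Tyrp1, and 151 and, on the opposite strand, 232 bases before it in Dct. TCATGTG was present on either strand in 3.77% of all 32851 listed promoters. CATGTG, which every M-box contains, was present in 14.2% of them and also in Oca2, 186 bases before the start. CACGTG, another E-box, was present in 7.15% of all promoters and in none of those of the 5 members. None of the 3 Mitf starts held any of the 3 E-box motifs, and the most downstream start held TGACGTCA, a motif chosen after that sequence was seen, which 1.79% of all promoters hold. Sequences were found for 6 of 10 other lineage genes looked up, and of these Slc24a5, an ion exchanger of the melanosome, Trpm1, a channel of melanocytes and retina, and Mc1r, the melanocortin receptor, also held TCATGTG.

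Counts in genes ran from 16753528 to 24993744 per library, so that 1 unit of CPM (reads of a gene scaled to library size with TMM factors) stood for 17 to 25.9 reads. Sex-linked genes parted the 8 libraries as labelled, with 5 of 5 called. The fast skeletal muscle genes summed to 43.9 CPM in female replicate 3 and to 31588 CPM in male replicate 2, the extremes of the 8. The labels give the libraries of a sex as separate samples without saying how each animal was used, so p-values measure the spread between these samples. Reads of the 7 members together came to 396 to 815 per library.

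Mitf, the regulator, was the only member with more than 117 reads in any library. It stood at 16, 22.3, 18.8 and 15.8 CPM in male replicates 1 to 4, and at 21.9, 11.5, 13.5 and 23.5 CPM in female replicates 1 to 4. Both the highest and the lowest library were female, and the sexes overlapped. Males averaged 18.2 ± 3.06 CPM, females 17.6 ± 5.99 CPM (SD, n = 4 each). Females over males, the edgeR quasi-likelihood fit gave -0.05 on the log2 scale with a standard error (SE) of 0.25 and a Benjamini-Hochberg adjusted p of 0.999. The sign depended on single libraries, since the change turned to 0.05 with male replicate 2 removed, 0.11 with female replicate 2 removed and 0.06 with female replicate 3 removed.

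Tyr, the rate-limiting enzyme, was near the limit of detection. It had 13, 9, 7 and 16 reads in male replicates 1 to 4 and 4, 12, 7 and 15 reads in female replicates 1 to 4. By reads male replicate 4 and female replicate 4 were highest and female replicate 1 was lowest, and the exact Poisson intervals of those extremes (95%, counting error only) were 9.15 to 26 and 1.09 to 10.2 reads. Scaled to library size, Tyr averaged 0.573 ± 0.178 CPM over the males and 0.419 ± 0.173 CPM over the females (SD, n = 4 each). The female-to-male change was -0.43 on the log2 scale (SE 0.39; adjusted p from edgeR 0.981), and the sexes overlapped.

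Tyrp1, which stabilises tyrosinase and acts late in eumelanin synthesis, had the narrowest range of the tested members. It had 39, 45, 51 and 32 reads in male replicates 1 to 4 and 46, 45, 44 and 69 in female replicates 1 to 4. In CPM the libraries spanned 1.57 (male replicate 4) to 2.78 (male replicate 3), a 1.77-fold range with both ends in males. Males averaged 2.17 ± 0.531 CPM, females 2.35 ± 0.394 CPM (SD, n = 4 each). On the log2 scale that was a change of 0.11 (SE 0.23; adjusted p from edgeR 0.999), and of -0.018 without male replicate 4.

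Dct, dopachrome tautomerase, which is already made in melanoblasts and melanocyte stem cells, had the most reads of the 3 enzymes, summed over the libraries. It had 68, 56, 87 and 117 reads in male replicates 1 to 4 and 39, 81, 87 and 115 in female replicates 1 to 4. Male replicate 4 was highest at 5.73 CPM and female replicate 1 lowest at 2.3 CPM, a 2.49-fold range. Females averaged 3.58 ± 0.907 CPM, males 4.21 ± 1.26 CPM (SD, n = 4 each). The change was -0.23 on the log2 scale (SE 0.28; adjusted p from edgeR 0.999), and the sexes overlapped.

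**Figure D1:**
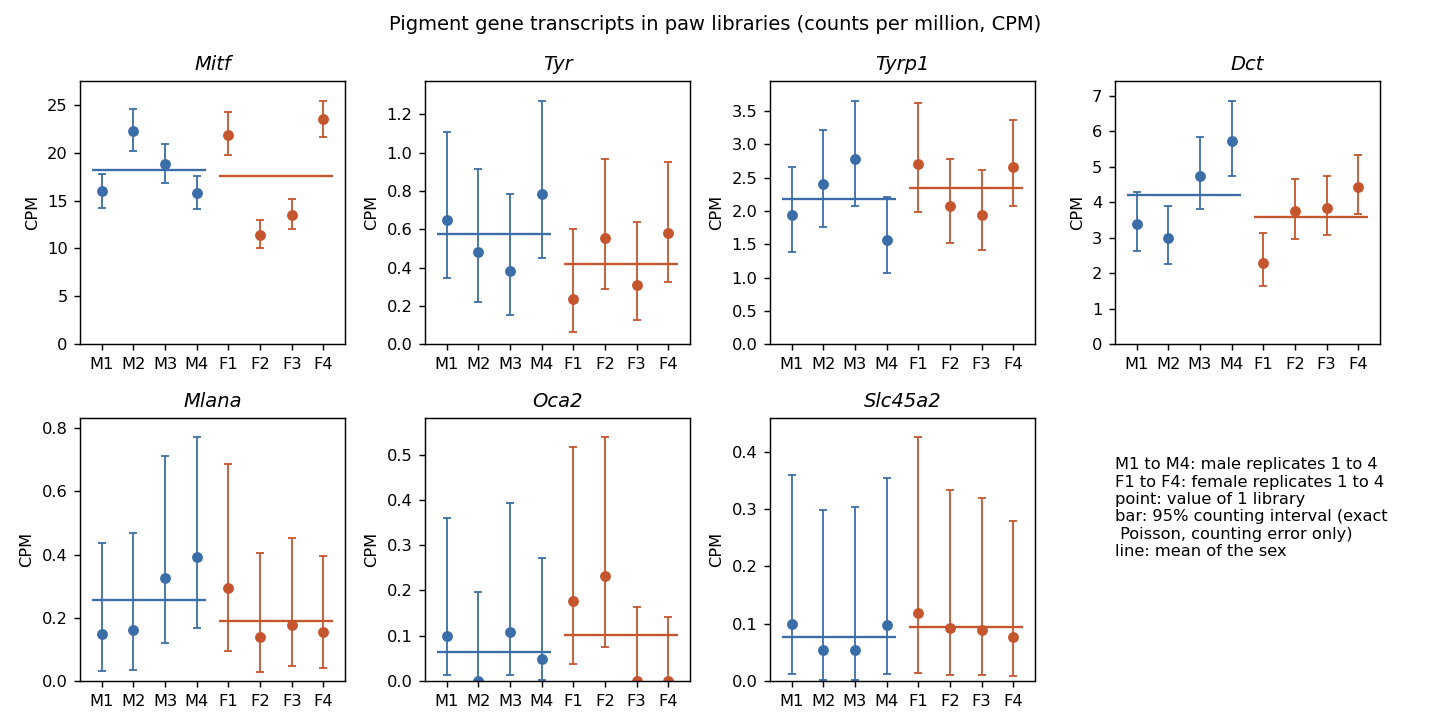
CPM of each pigment gene (vertical axis, its own scale per panel) in male replicates 1 to 4 and female replicates 1 to 4. Points are libraries, bars are exact Poisson intervals for counting error only, and horizontal lines are the means of each sex; the sexes overlap for all 7 genes, and the bars of Tyr, Mlana, Oca2 and Slc45a2 span most of the range between libraries.

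Mlana, Oca2 and Slc45a2 did not pass the filter on low counts. Mlana had 3, 3, 6 and 8 reads in male replicates 1 to 4 and 5, 3, 4 and 4 in females. Oca2 had 2, 0, 2 and 1 reads in males and 3, 5, 0 and 0 in females. Slc45a2 had 1 or 2 reads in every library. Oca2 was thus without a read in male replicate 2 and female replicates 3 and 4, where a count of 0 allows up to 3 reads, or 0.116 to 0.16 CPM by library size. The bars of the plot of CPM by library use the exact Poisson limit of 3.69 reads instead. Female over male ratios of the summed reads, scaled to library size, are given with 95% exact conditional intervals for counting error only. The ratios were 0.711 for Mlana (0.345 to 1.44), 1.42 for Oca2 (0.41 to 5.53) and 1.19 for Slc45a2 (0.361 to 4.15). Their intervals pool the reads of a sex and leave out the spread between its libraries. Exact two-sided permutation tests over the libraries gave p = 0.314, 0.571 and 0.314, where 4 against 4 can reach 0.0286 at best. At this depth, sex differences in these 3 genes of the sizes those intervals span were not detectable.

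In all, edgeR called 0 of the 4 tested members, and 14 of 14790 tested genes (0.0947%) at an adjusted p under 0.05. Of the 4 members 0 had an unadjusted p under 0.05, which 966 genes (6.53%) reached, and DESeq2 and limma-voom also called 0 members. Of the 4, 1 lay above 0 and 3 below, with a median log2 fold change of -0.14, where 52.7% of all tested genes lay above 0 with a median of 0.01. With the keratinocyte score as a covariate the log2 fold change of Mitf was -0.32 (SE 0.09, adjusted p from edgeR 0.117). In bulk tissue, fewer melanocytes and less RNA per melanocyte cannot be told apart. With sex as the sole term, an SE of 0.23 to 0.39 for the 4 members bounds what these libraries could detect.

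Levels of different genes were compared per kilobase of exon, as RPKM. Mitf had the highest mean at 3.37 ± 0.83 RPKM, followed by Dct at 1.77 ± 0.486, Tyrp1 at 0.831 ± 0.163, Mlana at 0.247 ± 0.109, Tyr at 0.0821 ± 0.0301, Slc45a2 at 0.0285 ± 0.0075 and Oca2 at 0.0265 ± 0.0279 (SD, n = 8). The ranges of RPKM over libraries did not overlap between Dct and Tyrp1, between Tyrp1 and Mlana, or between Mlana and Tyr. Those of Mitf and Dct overlapped, although Mitf was the higher in 8 of 8 libraries. Tyr was above Slc45a2 in 7 of 8 libraries with ranges that just overlapped. Slc45a2 was above Oca2 in 5 of 8 libraries, so these neighbours did not differ beyond their spread. The order of the means was the same per kilobase of coding sequence, but the separations of the ranges were not. With that length the ranges overlapped between Dct and Tyrp1, between Tyrp1 and Mlana, and between Mlana and Tyr. Those of Mitf and Dct then did not overlap.

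Among the 3 related enzymes, per kilobase of exon, Dct exceeded Tyrp1 in 8 of 8 libraries, and Tyrp1 exceeded Tyr in 8 of 8. In female replicate 1 Dct had fewer reads than Tyrp1 (39 against 46), so its place there depended on the length used. The Dct level was a median of 2.13 times that of Tyrp1 per kilobase of exon, and 1.79 times per kilobase of coding sequence. The ratio per kilobase of exon ran from 1.05 in female replicate 1 to 4.52 in male replicate 4. It lay between 1.54 and 2.44 in the other 6 libraries. The Dct level was a median of 20.6 times that of Tyr per kilobase of exon (14.4 to 34.1), and 7.72 times per kilobase of coding sequence, since the annotated Tyr transcript has a long untranslated end. The rank of Tyr therefore held with either length, while the size of its distance from Dct depended on the length used.

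How far the members varied over the libraries was set against counting noise with a dispersion index, the mean squared deviation of the reads over their expectation, which is near 1 where reads vary as counting alone would make them. The index was 1.3 for Tyr, 1.76 for Tyrp1, 5.56 for Dct and 23.7 for Mitf, and 9.49 at the median of all tested genes. Genes with from 0.5 to 2 times as many reads had a median index of 2.43 beside Tyr, 4.06 beside Tyrp1, 5.03 beside Dct and 7.82 beside Mitf. Tyr and Tyrp1 thus varied little beyond counting, with 17.2% and 16.5% of genes of like read number below them, whereas 78% of such genes lay below Mitf. For the untested Mlana, Oca2 and Slc45a2 the index was 0.898, 2.04 and 0.109.

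**Figure D2:**
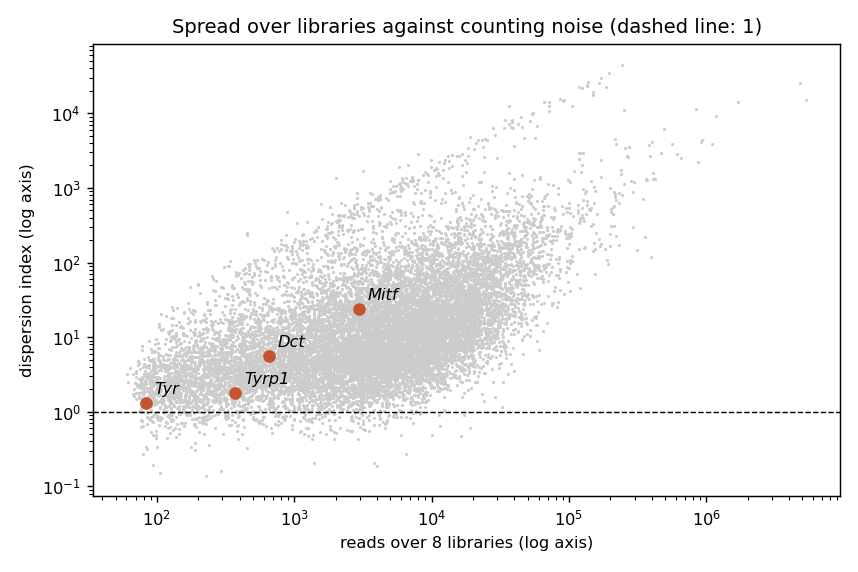
Dispersion index (vertical log axis) against the reads of a gene over 8 libraries (horizontal log axis) for all tested genes in grey and the 4 tested pigment genes in orange. The dashed line marks the value of counting noise, 1; Tyr at 1.3 and Tyrp1 at 1.76 lie close to it, and Mitf at 23.7 lies in the upper part of genes with as many reads.

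How far the pigment genes moved together over the 8 libraries is given as a description. Tyr and Tyrp1 varied little beyond counting, which limits any r that includes them, and only the pair of Dct and Mitf includes neither. Whether the 4 tested members moved as a block was not tested. Of the 6 pairs among them 2 had a positive Pearson r of log2 CPM. The median r was -0.24 (SE 0.33, from leaving out each library in turn), against -0.002 over all pairs of tested genes. Tyrp1 and Mitf varied in the same direction (r = 0.67, exact permutation p = 0.0731, adjusted over the 6 pairs 0.286; rho = 0.57, p = 0.151, adjusted 0.453). Without male replicates 3 and 4, the libraries farthest from the median of Tyrp1, r was 0.84, and with each sex centred it was 0.73. Of all pairs of tested genes 9.26% had an r at least as high, so the value is common in these libraries.

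Tyr and Dct, the enzymes at the start and in the middle of the route, also varied in the same direction (r = 0.61, exact permutation p = 0.107, adjusted over the 6 pairs 0.286; rho = 0.45, p = 0.267, adjusted 0.535). That relation rested on few libraries, since r fell to 0.29 without female replicates 1 and 3. Tyr and Tyrp1 varied in opposite directions (r = -0.57, exact permutation p = 0.143, adjusted 0.286; rho = -0.64, p = 0.0962, adjusted 0.453), with r = -0.86 without female replicates 1 and 3. The remaining pairs had r of -0.42 (Tyrp1 and Dct), -0.27 (Dct and Mitf) and -0.20 (Tyr and Mitf). None of the 6 pairs passed after adjustment, and with 4 to 16 reads of Tyr per library the values are given as a description.

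Male replicate 4 and female replicate 1 held the extremes of Tyr and Dct. Their values describe the r values above and give no separate support for them. Without male replicate 4 the r of Tyrp1 and Dct was -0.004, and without female replicate 1 that of Tyr and Dct was 0.28. In male replicate 4 Tyr and Dct were 0.63 and 0.59 above their mean log2 CPM and Tyrp1 was 0.48 below its own. In female replicate 1 Tyr and Dct were 0.77 and 0.69 below their means, while Tyrp1 and Mitf were 0.27 and 0.33 above. Only in female replicate 4 did all 4 lie above their means.

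**Figure D3:**
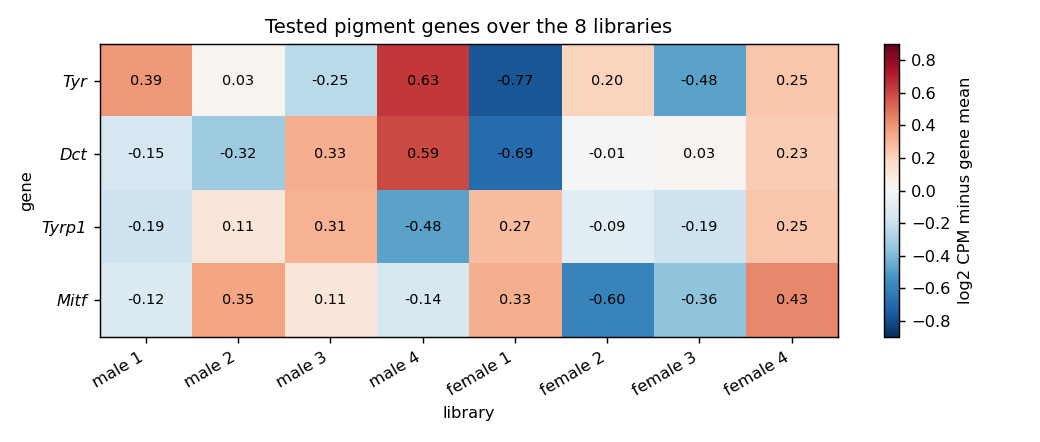
Log2 CPM of Tyr, Dct, Tyrp1 and Mitf minus the mean of each gene (colour scale and printed values) in each library (horizontal axis). Tyr and Dct share the highest library, male replicate 4, and the lowest, female replicate 1, where Tyrp1 lies on the other side of its mean.

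Markers of other cells varied alongside Mitf and Tyrp1. The 4 libraries with the highest Schwann cell scores (mean log2 CPM of 13 tested genes; 4.90 to 5.11 in male replicates 2 and 3 and female replicates 1 and 4) also had the 4 highest values of both Mitf and Tyrp1. The other 4 libraries had Schwann scores of 4.13 to 4.36. Because the scores fell into these separate clusters of 4, no pooled correlation is given, and a cluster held too few libraries for a test within it. The Schwann relations of Tyrp1 and Mitf were among 44 marker relations examined, of which none passed after adjustment. The split was not particular to Schwann markers. The same 4 libraries had the 4 highest fast muscle scores (7.5 to 9.93, against 0.54 to 7.18) and the 4 lowest keratinocyte scores (9.81 to 10.17, against 10.28 to 10.30). Summed over the list, the 14 listed Schwann genes, of which 13 were matched, stood at 589 to 950 CPM in females and 505 to 929 in males, and none of the 13 was at 0 in any library.

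Mitf ran against the keratinocyte score of 21 genes over the 8 libraries (r = -0.88, exact permutation p = 0.00474, adjusted 0.143; rho = -0.95, p = 0.00114, adjusted 0.0502). The adjustment was over the 44 relations, of 9 marker scores and the melanocyte markers Pmel and Sox10 with the 4 tested members, and none passed it. Without female replicates 1 and 4 r was -0.86, and with each sex centred it was -0.98. The 4 libraries with the highest keratinocyte scores lay within 10.28 to 10.30, where Mitf ran from 11.5 to 16 CPM. An r over the 8 libraries, for Mitf or for Tyrp1, does not separate their difference from the other libraries from a trend. Mitf also had r = 0.77 with the mast cell score (exact permutation p = 0.0174, adjusted 0.16; rho = 0.71, p = 0.0576, adjusted 0.253) and r = 0.83 with the macrophage score (exact permutation p = 0.00972, adjusted 0.143; rho = 0.74, p = 0.0458, adjusted 0.253). Without the 2 libraries farthest from the median, r was 0.48 for mast cells (female replicates 2 and 4 left out). For macrophages it was 0.54 (female replicates 2 and 3 left out), so both rested on those libraries. Within the females r was 0.95 for mast cells and 0.93 for macrophages, and within the males it was -0.16 and -0.51. Mast cell genes (12 of 12 matched) summed to 56.1 to 274 CPM in females and 90.4 to 108 CPM in males, and macrophage genes (12 of 12) to 820 to 2831 and 1492 to 1757 CPM. Tyrp1 also ran against the keratinocyte score (r = -0.77, exact permutation p = 0.031, adjusted 0.195; rho = -0.67, p = 0.0831, adjusted 0.305), with r = -0.68 without female replicates 1 and 4. Its r with the score of eccrine sweat gland genes was -0.77 (exact permutation p = 0.0237, adjusted 0.174; rho = -0.71, p = 0.0576, adjusted 0.253), and -0.30 without male replicate 4 and female replicate 3, so that relation rested on those libraries. The part of mast cells, macrophages, Schwann cells, keratinocytes, sweat glands and muscle in the Mitf and Tyrp1 values was not tested.

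**Figure D4:**
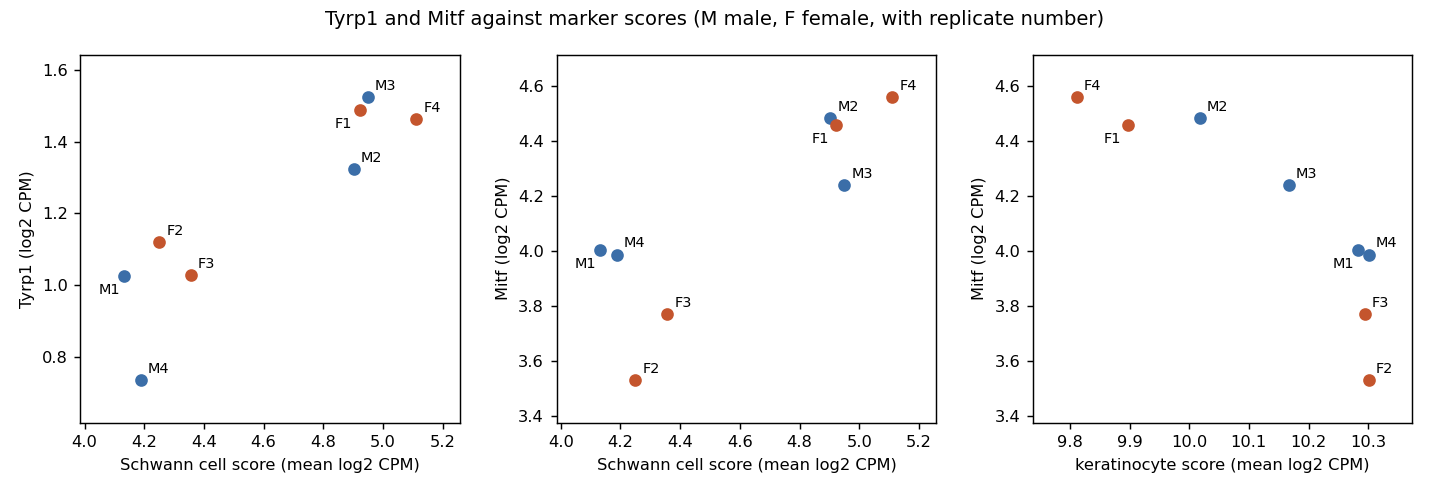
Log2 CPM of Tyrp1 or Mitf (vertical axes) against the Schwann cell or keratinocyte score (horizontal axes, mean log2 CPM of the tested markers), with 1 point per library. The Schwann scores form clusters at 4.13 to 4.36 and 4.90 to 5.11. Tyrp1 and Mitf are higher in all 4 libraries of the upper cluster. Mitf is also higher in the 4 libraries with the lowest keratinocyte scores, and the scores of the others lie within 10.28 to 10.30.

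Other markers of the lineage set the members in context. Pmel, the fibril protein on which melanin is laid down, had 29 to 48 reads per library (females 1.86 ± 0.492 CPM, males 1.93 ± 0.433 CPM, SD, n = 4 each). Its log2 change between the sexes was -0.06 (SE 0.26; adjusted p from edgeR 0.999). The r of Pmel was negative with both Tyr (r = -0.65, exact permutation p = 0.0918, adjusted 0.316; rho = -0.48, p = 0.243, adjusted 0.535) and Dct (r = -0.32, exact permutation p = 0.435, adjusted 0.696; rho = -0.19, p = 0.665, adjusted 0.79), and neither passed. Pmel had an r of 0.29 with Tyrp1 and 0.15 with Mitf. Sox10, a transcription factor of both melanocytes and Schwann cells, had 277 to 562 reads, and Trpm1 18 to 47. The r of Sox10 was 0.18 with Tyr, -0.03 with Tyrp1, 0.51 with Dct and 0.47 with Mitf. None of these relations passed after adjustment. The melanosome genes Slc24a5 (3 to 11 reads), Tspan10 (0 to 6 reads) and Gpr143, a melanosomal receptor (0 to 2 reads), and Mc1r, the melanocortin receptor (1 to 7 reads), did not pass the filter, like Mlana. The markers typical of pigment cells that passed were Tyr, Tyrp1, Dct, Pmel and Trpm1, of which Tyr had the fewest reads.

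Ligands that reach melanocytes did not differ between the sexes beyond their spread. Of 11 listed, 7 were tested, 5 lay above 0 and 2 below, 0 were called, and the median log2 fold change was 0.11. Kitl, the stem cell factor that melanocytes need to survive, averaged 50.8 ± 10.7 CPM over the females and 50.7 ± 6.2 CPM over the males (SD, n = 4 each), a log2 change of 0.004 with an SE of 0.16. Edn3, the endothelin of melanoblast expansion, differed by -0.22 on the log2 scale (SE 0.25), Edn1, another endothelin, by 0.15 (SE 0.19), Bmp4, a growth factor that restrains pigmentation, by 0.11 (SE 0.14), and Nrg1, a neuregulin, by 0.48 (SE 0.42), all with edgeR adjusted p of 0.972 or more. The agouti gene, named a in the files, had 0 to 13 reads and Pomc, the precursor of melanocortins, 1 to 8.

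Regulators and receptors gave the same picture. Of 13 listed, 9 were matched and 8 tested, 6 lay above 0 and 2 below, 0 were called, and the median log2 fold change was 0.14. Sox10 averaged 17.8 ± 3.73 CPM over the females and 20.9 ± 3.83 CPM over the males (SD, n = 4 each), a log2 change of -0.23 (SE 0.19; adjusted p from edgeR 0.946). Lef1, a partner of MITF in Wnt signalling, differed by 0.58 on the log2 scale (SE 0.36; adjusted p from edgeR 0.881), Bcl2, a survival gene of melanocyte stem cells, by 0.33 (SE 0.20, adjusted p 0.868) and Cdh1, the cadherin that ties melanocytes to keratinocytes, by 0.14 (SE 0.18, adjusted p 0.999).

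Of 18 other melanosome genes 15 were tested, with 9 above 0, 6 below, 0 called and a median log2 fold change of 0.05. Rab27a, the GTPase that holds melanosomes at the cell edge, averaged 8.94 ± 0.592 CPM over the females and 7.14 ± 1.18 CPM over the males (SD, n = 4 each). The change of 0.32 on the log2 scale (SE 0.14; adjusted p from edgeR 0.764) did not pass, and the sexes overlapped. Sytl2, an effector of Rab27a, differed by 0.27 on the log2 scale (SE 0.17; adjusted p from edgeR 0.881), Slc7a11, a cystine transporter that feeds pheomelanin synthesis, by -0.21 (SE 0.15, adjusted p 0.922) and Rab38, which brings enzymes to the melanosome, by 0.16 (SE 0.16, adjusted p 0.99). In these 3 lists edgeR gave 0 genes an unadjusted p under 0.05, and DESeq2 also called 0.

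All 20 listed genes of lysosome-related organelles, which build melanosomes, platelet granules and other vesicles in many cells, were tested. Of them 11 lay above 0 and 9 below, with a median log2 fold change of 0.03, and 0 were called. An unadjusted p under 0.05 was reached by 2 of the 20, against 6.53% of all tested genes, so no excess is read from this count. The 2 were Hps3 and Hps5, subunits of BLOC-2, the complex that routes Tyrp1 and other cargo to melanosomes. Hps3 stood at 27.4, 29.8, 28.6 and 32.2 CPM in male replicates 1 to 4 and at 40.5, 35.5, 35.2 and 44.9 CPM in females. All 4 females lay above all 4 males, yet the change of 0.41 on the log2 scale (SE 0.10) did not pass over all genes (adjusted p from edgeR 0.455, from DESeq2 0.0743). Hps5 stood at 36.7 to 39.2 CPM in males and 41 to 43.3 CPM in females, again without overlap (0.15 on the log2 scale, SE 0.06, adjusted p from edgeR 0.749). Complete separation of 4 from 4 has an exact two-sided permutation p of 0.0286 before any choice among genes. Hps3 and Hps5 were picked by their p, and the share of all tested genes without overlap was not counted. Their separation is therefore given as a description. The third BLOC-2 subunit, Hps6, differed by -0.02 on the log2 scale (SE 0.18; adjusted p from edgeR 0.999). Bloc1s3 (-0.20, SE 0.09) and Muted (0.16, SE 0.09), subunits of BLOC-1, had adjusted p from edgeR of 0.77 and 0.841.

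**Figure D5:**
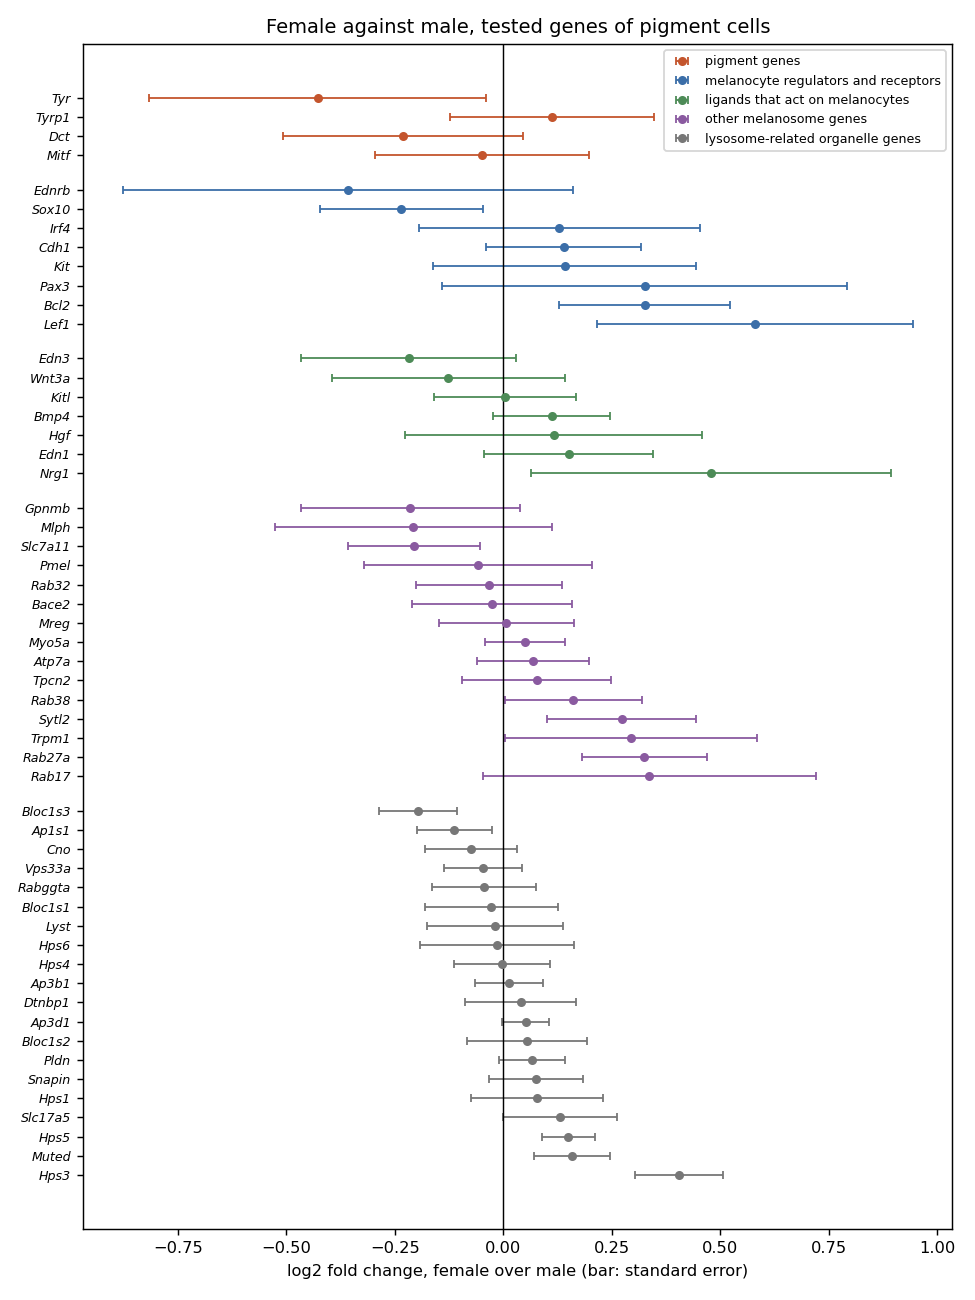
Log2 fold change of females over males (horizontal axis) with its standard error (bars) for the tested pigment genes and the 4 pathway lists, 1 gene per line. The points lie on both sides of 0, and none of these genes was called; Hps3 at 0.41 and Hps5 at 0.15 lie farthest from 0 relative to their standard errors.

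The genes whose pattern was most like the mean of the 4 tested members, each standardised, were Mcfd2 (r = 0.98), Ddah2, 4931406C07Rik, Zdhhc7, Sprn, Hpcal1, Fbxl2, Cdr2l, Lrrc57 and Cd63 (r = 0.94), over 8 libraries and 14095 genes with a mean of at least 1 CPM. This is a description with no test, since 46 genes had an r of at least 0.9 and the 4 members differ among themselves. For Tyr alone the nearest were Srd5a3 (r = 0.95), Mrpl54, Yars2, Zfp82 and Vps45 (r = 0.92). No other listed pigment gene was among these 15.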

How the data were processed

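Per the labels' protocols, a strand-marking poly(A) kit was used on 500 ng of RNA, read from 1 end for 50 bp. Per the submitters' processing notes, the tools were HTSeq, TopHat2 and bcl2fastq, with build mm9. Their versions, the annotation and the strand setting were not found in the labels, so overlapping and antisense genes may share reads. The authors deposited raw read counts per gene symbol, without normalization, 1 file per library. Summary lines that name no gene were left out. Shares are of the reads counted in genes, in no feature or as ambiguous. Reads in no feature were 18 to 18.8% in males, 20.4 to 21.1% in female replicates 1 to 3 and 18% in female replicate 4. Ambiguous reads were 0.198 to 0.231%. Libraries of 1 sex differed far beyond sampling noise (chi-square per degree of freedom of at least 13.2, genes with at least 20 counts), so no library was taken for a second deposit of another; whether they are independent animals is not shown by this.

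Female was compared with male by edgeR 4.0.16 (R 4.3.3): filterByExpr, TMM, quasi-likelihood test, robust, Benjamini-Hochberg over 14790 genes. CPM is scaled by TMM; log2 CPM has a prior count of 2. RPKM here is that CPM per kilobase of exon union in GENCODE vM21, computed here. Marker and pathway lists, members and tests were chosen with earlier results of these data known. Named are the 7 members, called list genes, up to 4 of smallest p per list, and the genes of most like pattern; Kit, Ednrb, Kitl, Slc24a5, Tspan10, Gpr143, Mc1r, Trpm1, Pomc, the agouti gene, Pmel (beyond its marker role), Hps6 and the motif TGACGTCA were added after their values were seen. Alternatives were DESeq2 1.42.0, limma-voom (limma 3.58.1), other size factors, filters, covariates, scalings and prior counts, a replicate block, and each library left out.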

Additional observations from a re-analysis of the deposited data

Results flagged for a closer look

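Within each sex, 66 sets of 4 values (log2 CPM of the 7 members and 13 related genes, and list scores) were searched for a library standing far from its 3 companions. Chance alone would mark about 1 in 20 such sets, and 1 was found. Slc24a5, the melanosomal ion exchanger, stood at -2.04 log2 CPM in male replicate 4, against -0.77 to -0.55 in the other males. The reads behind it were 3 against 9 to 11, and the exact Poisson interval of 3 reads, 0.619 to 8.77, ends just under 9. The same library was highest of all 8 for Tyr and Dct and lowest for Tyrp1.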

How the results depend on the processing

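None of the 4 tested members and none of the 50 tested pathway genes was called under any of the 18 alternatives. Over all genes edgeR called 6 higher in females and 8 higher in males. DESeq2 called 57 and 55, and the keratinocyte covariate 92 and 71. The replicate block gave 2 and 5; its numbers share no source in the labels, the deviations of same-numbered libraries had correlations of -0.31 to -0.09, and 0 of 8 libraries correlated best with their own number. Leaving out each library gave 2 to 7 and 6 to 10 (the low of 2 with either male replicate 3 or male replicate 4 removed, and 3 with male replicate 1 removed), and leaving out the libraries with most and least muscle together (a choice made after seeing the data) gave 5 higher in males.

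The log2 fold changes of Tyr (-0.63 to -0.24) and Dct (-0.41 to -0.05) kept their sign under all alternatives that tested them; the filter that asks for 2 CPM in 4 libraries left Tyr out. That of Tyrp1 was -0.021 with the keratinocyte covariate and -0.018 to 0.25 without each library in turn. That of Mitf was -0.32 with the keratinocyte covariate, 0.062 with the muscle covariate and 0.16 without both muscle extremes. Without each library in turn that of Mitf was -0.23 to 0.11. The cause was not tested. The median r over the 6 pairs was -0.40 to 0.01 without each library in turn. With the keratinocyte score subtracted it was 0.16, and Tyr with Mitf (0.16), Tyrp1 with Dct (0.031) and Dct with Mitf (0.17) turned positive; subtracting 1 score from every gene adds a shared term. Tyr with Mitf ran from -0.44 to 0.051 without each library. The r of Tyrp1 with Mitf stayed within 0.60 to 0.87 (rho 0.57) and that of Tyr with Tyrp1 within -0.78 to -0.11. Depth limits Oca2, Slc45a2, Mlana and Tyr most, with 0 to 16 reads per library.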

Other observations

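Ednrb, the endothelin receptor of melanoblasts and of blood vessels, stood at 31.9, 24.6, 38.3 and 34.7 CPM in male replicates 1 to 4 and at 23.4, 7.99, 15.5 and 54 CPM in female replicates 1 to 4. Both extremes were female, in the libraries that also had the lowest (female replicate 2) and the highest (female replicate 4) Mitf. The log2 fold change of Ednrb was -0.36 (SE 0.52; adjusted p from edgeR 0.999).

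Kit, the receptor of stem cell factor on melanocytes and mast cells, stood at 45.1, 30.7, 41.2 and 72 CPM in males and 37.2, 39, 72.1 and 60 CPM in females. Its highest libraries, male replicate 4 and female replicate 3, were the 2 with the lowest fast muscle scores (4.87 and 0.54) and the highest scores of eccrine sweat gland genes (5.45 and 5.14). The part of muscle and sweat gland content in these values was not tested. Trpm1 stood at 0.895 to 1.44 CPM in males and 0.971 to 1.81 CPM in females, and its highest library was again female replicate 4.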
